A study of Mus musculus with 12 samples.

Results

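The comparison is between 2 sets of mouse primary cortical neuron cultures that differ in the preparation number carried by their names. The 4 libraries of preparations 27 and 27_1, called the 27 cultures here, were set against the 8 libraries of preparations 22, 24 and 26, so the 12 libraries of the study all take part. The labels do not say what a preparation number stands for, and the 2 sets were formed from the names alone. All cultures were neurons of embryonic day 16 Swiss Webster mouse embryos, which received lentivirus on day 5 in vitro and were harvested on day 10, and RNA was sequenced after removal of ribosomal RNA. The groups were a control vector without huntingtin, exon 1 of wild-type huntingtin with 25 glutamines (Htt-25Q) and exon 1 of mutant huntingtin with 72 glutamines (Htt-72Q), with 4 libraries each. Control vector 2 is labelled as infected with a control vector and the other 3 controls with an empty vector, and it was placed in the group by its title. The virus therefore delivers a fragment of the protein to cells that keep their own Htt gene, and the promoter that drives it is not given in the sources used here. Control vector 4, Htt-72Q 4 and Htt-25Q 3 carry the name 27_1, and Htt-25Q 4 carries the name 27. The other set holds control vector, Htt-72Q and Htt-25Q libraries 1 (preparation 22) and 2 (preparation 24), and control vector 3 and Htt-72Q 3 (preparation 26). Group was a term in every fit unless stated, because the 27 cultures hold 2 Htt-25Q libraries and 1 of each other group.

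Neurons that fire let calcium in through glutamate receptors and voltage-gated channels, and calcium and MAP kinase signals then switch on immediate early genes without new protein synthesis. Many of these encode transcription factors, such as the FOS, JUN, EGR and NR4A families, and others act directly at synapses. A later set, including neurotrophins, neuropeptides and their processing enzymes, follows and changes synapses and excitability, and the phosphorylated factor CREB acts at many of these promoters through a sequence that begins TGACG.

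The promoters of Fos, Fosb, Junb and Nr4a2 are shown because these genes were among those with the clearest difference between the sets and each holds that sequence in the 250 bases before its start. They are from RefSeq on GRCm38.p6, read 5′ to 3′ on the strand of the gene, at chr12:85473640-85473889 (plus strand) for Fos, chr7:19310046-19310295 (minus strand) for Fosb, chr8:84978749-84978998 (minus strand) for Junb and chr2:57124004-57124253 (minus strand) for Nr4a2. Capitals mark TGACG on either strand (CGTCA where it lies on the other strand).
Fos: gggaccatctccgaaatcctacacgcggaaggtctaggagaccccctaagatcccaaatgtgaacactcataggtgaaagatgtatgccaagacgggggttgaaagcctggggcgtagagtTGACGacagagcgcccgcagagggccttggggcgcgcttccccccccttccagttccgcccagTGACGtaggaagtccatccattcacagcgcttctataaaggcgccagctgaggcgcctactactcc
Fosb: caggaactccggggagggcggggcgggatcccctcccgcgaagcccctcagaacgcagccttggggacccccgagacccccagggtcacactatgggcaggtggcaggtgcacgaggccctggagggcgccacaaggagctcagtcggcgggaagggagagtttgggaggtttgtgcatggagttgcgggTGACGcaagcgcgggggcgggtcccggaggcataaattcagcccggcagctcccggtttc
Junb: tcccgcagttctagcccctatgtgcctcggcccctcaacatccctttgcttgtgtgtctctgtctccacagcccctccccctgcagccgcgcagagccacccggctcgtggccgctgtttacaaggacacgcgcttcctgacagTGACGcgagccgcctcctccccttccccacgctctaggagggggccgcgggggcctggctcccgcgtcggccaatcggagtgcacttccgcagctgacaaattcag
Nr4a2: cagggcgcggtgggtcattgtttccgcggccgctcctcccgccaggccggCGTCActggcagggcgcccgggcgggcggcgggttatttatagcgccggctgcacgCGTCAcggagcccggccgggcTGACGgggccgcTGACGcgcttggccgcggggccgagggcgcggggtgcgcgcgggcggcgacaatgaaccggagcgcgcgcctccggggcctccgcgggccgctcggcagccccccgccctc
In Fos the 2 half-sites begin 129 and 66 bases before the start, in Fosb the 1 half-site begins 60 bases before it and in Junb 106 bases before it. Nr4a2 holds 4, which begin 200, 144, 123 and 111 bases before its start.

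The libraries had totals of 12.7 to 27.5 M counts (M, 1e+06) in the 27 cultures and 12.4 to 23.4 M in the others, and 14707 genes were tested. The summed share of mitochondrial ribosomal RNA was 7.15% to 14.4% in the 27 cultures and 6.71% to 14.8% in the others. The Gapdh level falls into a high and a low class, and 3 of the 4 libraries of the 27 cultures and 3 of the 8 others are in the high class. The Htt gene itself did not pass the test between the sets, with a log2 fold change of 0.05 ± 0.24 (SE, 27 cultures over others, edgeR quasi-likelihood test, adjusted p = 0.955). Htt was 124, 155, 182 and 157 CPM in control vector 4, Htt-72Q 4, Htt-25Q 3 and Htt-25Q 4, against 89.2 to 235 CPM (median 128) in the others.

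Genes induced by neuronal activity were higher in the 27 cultures, among other genes that differed. In all, 548 of 14707 genes (3.73%) differed at an adjusted p under 0.05 (edgeR quasi-likelihood test, 8 residual degrees of freedom), with 385 higher in the 27 cultures (2.62%) and 163 lower (1.11%). Of the 83 tested members of 4 lists of activity-induced genes, 46 (55.4%) were higher and 0 lower, and the other 37 did not pass the test. A further member, Klf2, was left out by the filter on low counts. In 28 of the 83 all 4 of the 27 cultures lay above all 8 others, which held for 1.63% of all genes tested. Over all genes the ranges did not overlap in 3.07%, in either direction. The median log2 fold change of the 83 genes was 0.87, against -0.01 over all genes tested. Among the 20 genes with the smallest p, 13 belong to these lists. The lists were chosen with earlier results of these data known, so these shares describe the members and are no test. Called members make up 11.9% of all genes called higher, so most genes called higher are outside the lists. Libraries of 1 preparation may share a culture, so the edgeR p-values can be too small. With preparation as a random block (limma voom), 341 genes were called (2.32%), 276 higher (1.88%) and 65 lower (0.442%), and 41 of the 83 activity genes were among them. With the 5 preparations as the units (limma on preparation means, 3 residual degrees of freedom), 150 genes (1.02%) and 29 of the activity genes were called. Both fits count 27 and 27_1 as separate preparations, which the labels do not settle. If they are 1 preparation, the p-values of these fits can be too small as well. Leaving out 1 library at a time gave 211 genes (without control vector 4) to 820 (without control vector 1), and 32 to 49 of the activity genes. Without preparation 24, 125 genes and 28 activity genes were called. Nothing in the labels says that the libraries come from separate embryos, so the p-values measure only the spread between these libraries.

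**Figure D1:**
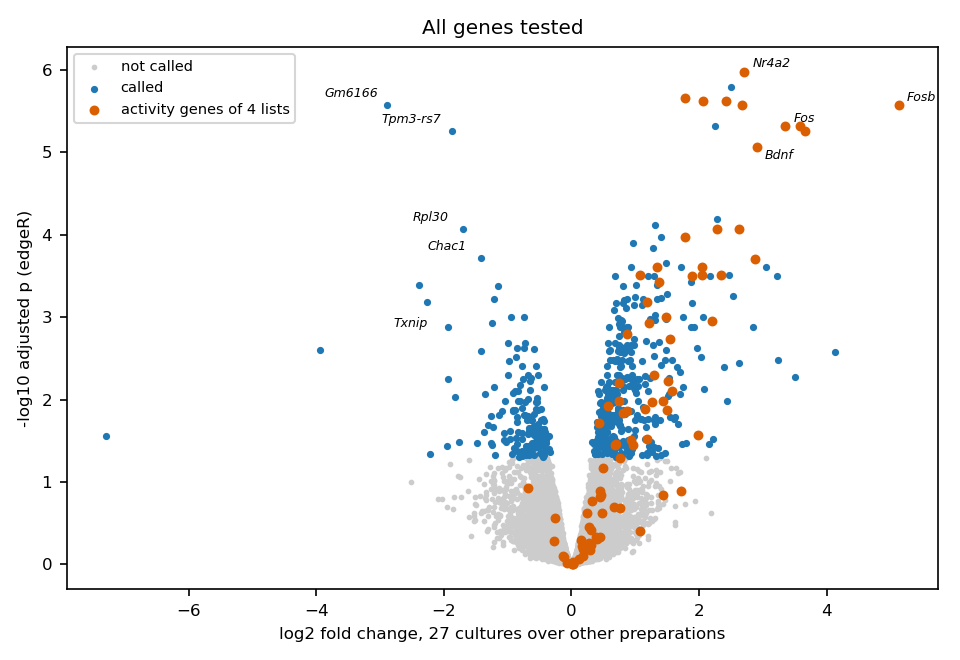
Each point is 1 of the 14707 genes tested, with the log2 fold change (27 cultures over preparations 22, 24 and 26) on the x axis and -log10 of the edgeR adjusted p on the y axis. Blue points are the genes called, orange points the 83 activity genes of 4 lists, of which 46 are called and lie to the right of 0.

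Fos, the gene of the AP-1 factor c-FOS and a widely used marker of recent neuronal activity (chr12:85473890-85477273, plus strand, GRCm38), was 87.1 CPM in control vector 4, 79.4 in Htt-72Q 4, 100.4 in Htt-25Q 3 and 105 in Htt-25Q 4. The 8 other libraries ran from 4.73 to 13.3 CPM with a median of 8.01 CPM. Every 27 culture was therefore above every other library, by a wide margin, and the fold was 10.2 (log2 3.35 ± 0.25 (SE), edgeR, adjusted p = 4.8e-06). Per kilobase, mean Fos was 39.6 RPKM in the 27 cultures and 3.72 RPKM in the others. Junb (chr8:84974484-84978718, minus strand), a partner of FOS in AP-1, was 56.9, 49.5, 52.3 and 78.9 CPM in control vector 4, Htt-72Q 4, Htt-25Q 3 and Htt-25Q 4, and 7.88 to 20.9 CPM (median 13.0) in the others. The sets did not overlap for Junb, and its log2 fold change was 2.05 ± 0.23 (SE, edgeR adjusted p = 0.00025). Arc (chr15:74669083-74672570, minus strand), which encodes a protein of the active synapse that removes AMPA receptors, was 25.9, 18.0, 26.1 and 31.1 CPM in the same 4 libraries and 3.22 to 9.49 CPM (median 6.80) in the others. Again no other library reached the lowest 27 culture, and the log2 fold change was 1.89 ± 0.22 (SE, edgeR adjusted p = 0.00032).

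**Figure D2:**
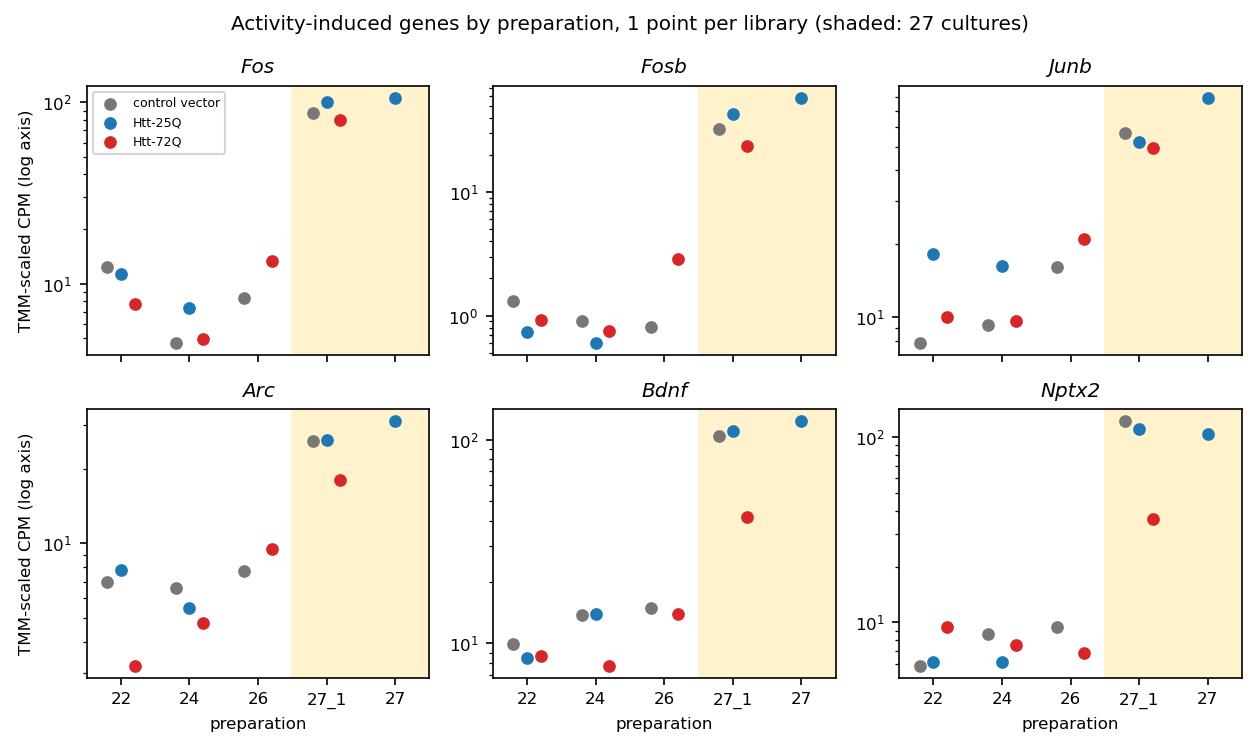
TMM-scaled CPM (log axis) of Fos, Fosb, Junb, Arc, Bdnf and Nptx2 by preparation, with 1 point per library coloured by group and the 27 cultures shaded. In each of the 6 genes all 4 shaded points lie above the 8 others; Htt-72Q 4 is the lowest shaded point in each.

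In the list of immediate early transcription factors, 20 of 32 tested members were higher (the list median of the log2 fold change was 0.97), 0 lower and 12 were not called. Fosb, a FOS paralogue, had the largest positive log2 fold change of the named genes, 5.13 ± 0.35 (SE, 35-fold). Its levels were 32.5, 23.7, 42.8 and 57.3 CPM in control vector 4, Htt-72Q 4, Htt-25Q 3 and Htt-25Q 4, against 0.605 to 2.87 CPM (median 0.852) in the others. From here on, the 4 values of the 27 cultures are in that order, followed by the range of the 8 others. Fosl2, a further FOS relative, was 209, 57.5, 233 and 263 CPM against 13.7 to 69.8 CPM (log2 2.06 ± 0.13). Here Htt-72Q 4 lay inside the range of the others, and the other 3 lay above it.

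The orphan nuclear receptors of the NR4A family were all higher. Nr4a2, needed for dopamine neurons and induced by activity in cortex, was 32.1, 12.9, 36.8 and 43.8 CPM against 1.83 to 5.63 CPM (median 4.47), without overlap. Its log2 fold change of 2.71 ± 0.15 (SE) had the smallest adjusted p of the activity genes (edgeR, 1.1e-06). Nr4a3 had a log2 fold change of 2.21 ± 0.31 and Nr4a1 of 1.38 ± 0.16, and in both the ranges of the sets overlapped. Of the EGR zinc-finger factors, 3 of 4 passed. Egr4 (log2 2.34 ± 0.27), Egr2 (1.99 ± 0.46) and Egr3 (1.78 ± 0.18) were called. The call of Egr2 was lost in 6 of the 12 fits that left out 1 library, and those of Egr3 and Egr4 in 0. Egr1, itself a widely used marker of activity, was 27.0, 19.0, 39.6 and 40.1 CPM against 7.57 to 36.5 CPM (median 15.3), and its log2 fold change of 0.76 ± 0.30 did not pass (edgeR adjusted p = 0.207).

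Npas4, a neuron-restricted factor that responds to calcium entry, was 15.3, 4.5, 17.8 and 21.8 CPM against 1.09 to 7.75 CPM (log2 1.55 ± 0.23). Csrnp1 (log2 2.29 ± 0.22), Maff (2.05 ± 0.24), a small MAF protein, and Klf10 (1.07 ± 0.12), a Krüppel-like factor, were also higher, each without overlap between the sets. Atf3, a stress and injury factor, was 14.5, 14.2, 13.2 and 15.3 CPM against 2.55 to 15.8 CPM (log2 1.57 ± 0.29). Its call was lost with the preparation block (limma voom adjusted p = 0.11). Crem, which encodes cAMP-responsive repressors and activators, had a log2 fold change of 0.75 ± 0.15. Ier5 (log2 1.15 ± 0.23) was called and Per1 (0.87 ± 0.18), a clock gene that CREB also regulates, was called as well. Jun, the gene of c-JUN, was 32.7, 35.8, 37.5 and 40.3 CPM against 33.9 to 57.2 CPM (log2 -0.26 ± 0.12), Ier2 had a log2 fold change of 0.48 ± 0.20 and Klf6 of -0.68 ± 0.22, and none of these 3 passed (edgeR adjusted p = 0.28, 0.23 and 0.12).

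Among 18 immediate early effectors, 9 were higher and 0 lower, with a list median log2 fold change of 0.53. Ptgs2, which encodes cyclooxygenase-2, was 14.4, 4.5, 12.3 and 11.7 CPM against 0.319 to 1.26 CPM (median 0.787), a log2 fold change of 3.66 ± 0.28. The sets did not overlap, and Htt-72Q 4 was well below the other 27 cultures. Gadd45b and Gadd45g, stress sensors linked to active DNA demethylation, had log2 fold changes of 2.63 ± 0.26 and 1.30 ± 0.23. Rgs2, a regulator of G protein signalling, was 204, 59.6, 216 and 225 CPM against 19.0 to 63.7 CPM (log2 1.78 ± 0.11). Homer1, a scaffold of metabotropic glutamate receptors whose short form is activity-induced, was 318, 149, 332 and 360 CPM against 63.9 to 157 CPM (log2 1.18 ± 0.15). The counts are per gene, so the short and long forms of Homer1 cannot be told apart here. Arl4d (log2 1.48 ± 0.20), Sik1 (0.87 ± 0.13), a kinase that restrains CREB coactivators, and Dnajb5 (0.58 ± 0.12), a chaperone, were the other named members called.

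Of 15 genes that feed back on MAP kinases, 6 were higher and 0 lower. Dusp4 (log2 1.51 ± 0.27), Dusp5 (1.49 ± 0.30), Dusp6 (1.34 ± 0.15) and Dusp14 (0.97 ± 0.24) encode phosphatases that inactivate MAP kinases. Spred3 (0.70 ± 0.17) and Errfi1 (0.43 ± 0.09), which restrain RAS and EGF receptor signalling, were called too. Dusp6 was 148, 25.6, 133 and 133 CPM against 14 to 54.8 CPM, so Htt-72Q 4 lay inside the range of the others. With group taken out, its log2 level was 5.92 in Htt-72Q 4 and at most 5.43 in the others. Spred1 did not pass (log2 0.32 ± 0.12, edgeR adjusted p = 0.17), nor did Spry4 (0.77 ± 0.20, adjusted p = 0.0505), although the ranges of the sets did not overlap for either gene. With the preparation block 4 of these 15 genes were called, and 1 with the preparation means. With preparation as a block the calls of Spred3 and Errfi1 were lost (limma voom adjusted p = 0.062 and 0.056).

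Late activity-response genes had the highest list median, 1.24, with 11 of 18 higher and 0 lower. Nptx2, which encodes a secreted pentraxin that gathers AMPA receptors at synapses, was 122, 36.1, 111 and 104 CPM against 5.86 to 9.44 CPM (median 7.22), a log2 fold change of 3.58 ± 0.27. Bdnf, the gene of brain-derived neurotrophic factor, was 104, 41.9, 110 and 123 CPM against 7.78 to 15.0 CPM (median 11.9), a 7.5-fold difference (log2 2.91 ± 0.23, edgeR adjusted p = 8.5e-06). In both genes the 27 cultures stood clear of the others. Gpr3, a receptor with constitutive activity on adenylate cyclase, had a log2 fold change of 2.87 ± 0.31. Pcsk1, the prohormone convertase, and Vgf, one of its substrates, had log2 fold changes of 2.68 ± 0.18 and 2.42 ± 0.16. Vgf was 172, 213, 186 and 235 CPM against 23.3 to 48.0 CPM, and here Htt-72Q 4 was not the lowest 27 culture. Secreted peptides with smaller log2 fold changes were Adcyap1 (1.44 ± 0.28), Penk (1.19 ± 0.28) and Scg2 (0.68 ± 0.17). Nptx1 (1.22 ± 0.17), Pim1 (1.26 ± 0.25) and Nrn1 (0.94 ± 0.22) completed the called members. Pdyn (log2 1.43 ± 0.49) was not called (edgeR adjusted p = 0.14). The calls of Penk and Scg2 were lost with preparation as a block (limma voom adjusted p = 0.069 and 0.081).

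**Figure D3:**
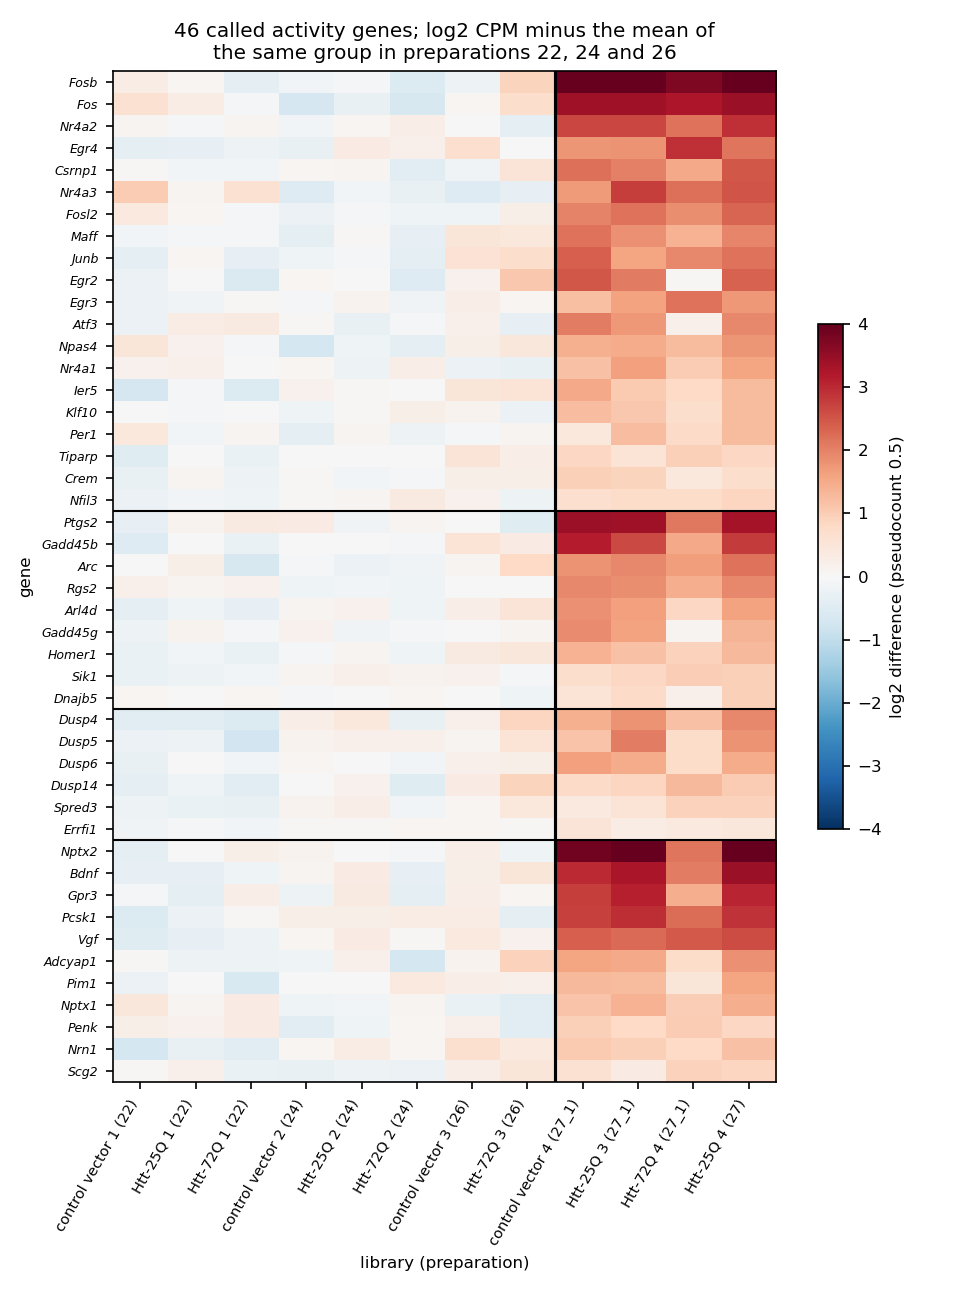
Rows are the 46 called activity genes in 4 lists separated by lines (transcription factors, effectors, MAP kinase feedback, late genes) and columns the 12 libraries by preparation. Colour is log2 of CPM plus 0.5 minus the mean of the same group in preparations 22, 24 and 26: the 4 columns on the right are red in nearly every row, least so in Htt-72Q 4 of preparation 27_1.

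The difference was present in each group. Over the 46 called genes, the median log2 difference between the 27 cultures and the others was 1.59 within control vector (1 library against 3), 1.73 within Htt-25Q (2 against 2) and 1.10 within Htt-72Q (1 against 3). It was positive in 46, 46 and 45 genes. The exception was Egr2 in Htt-72Q, with -0.19, where Htt-72Q 4 held 2.18 CPM and Htt-72Q 3 held 5.02 CPM. Control vector 4 was above the 3 other control libraries in 45 of the 46 genes, both Htt-25Q 27 cultures were above both others in 46, and Htt-72Q 4 was above the 3 other Htt-72Q libraries in 43. These 46 were called from the same libraries, so the counts describe them and are no further test.

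Htt-72Q 4 was the lowest of the 4 27 cultures in 38 of the 46 genes, and the difference in control vector was larger than in Htt-72Q in 33. The rank is not adjusted for group, and Htt-72Q libraries were low in the other preparations too. There the summed late activity-response genes were 397 to 511 CPM in Htt-72Q and 726 to 957 CPM in control vector and Htt-25Q. Values of the log2 difference in control vector, Htt-25Q and Htt-72Q were 3.93, 4.13 and 2.18 for Nptx2, 1.92, 1.51 and 0.12 for Gadd45g, 2.20, 1.94 and 0.19 for Atf3, and 3.35, 3.46 and 3.20 for Fos. Fos thus had much the same difference in the 3 groups, whereas Gadd45g and Atf3 were near 0 in Htt-72Q. When the interaction of culture set with group was tested (edgeR quasi-likelihood test, adjusted over all genes), 0 genes were called (0%), and 330 genes (2.24%) had an unadjusted p under 0.05. Control vector and Htt-72Q have 1 library each in the 27 cultures, and the smallest adjusted p was 0.9995. DESeq2 called 2 genes and edgeR without a filter on low counts called 37.

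**Figure D4:**
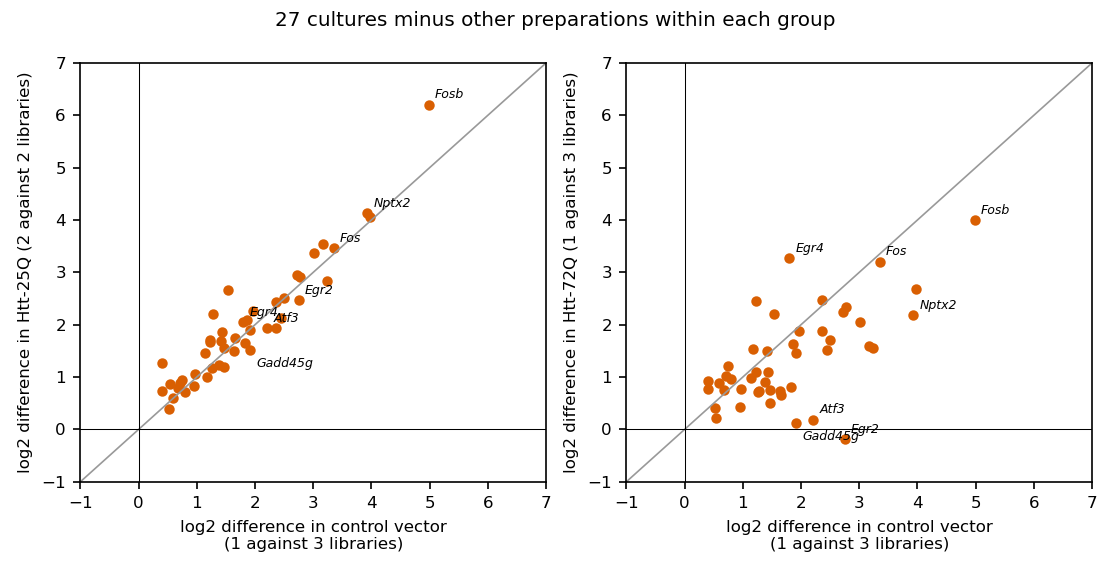
Each point is 1 of the 46 called activity genes, with the log2 difference between the 27 cultures and the other preparations within control vector on the x axis and within Htt-25Q (left) or Htt-72Q (right) on the y axis, and the line marks equal values. Points in the left panel lie along the line, and in the right panel 33 of 46 lie below it.

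Preparations 27 and 27_1 can be compared only in Htt-25Q, with 1 library each and no test. In the 46 genes Htt-25Q 4 (27) and Htt-25Q 3 (27_1) stayed within 2-fold of each other, with a median log2 difference of 0.15 (27 minus 27_1), and the value was higher in 27 in 35. Over genes with a mean of at least 1 CPM, 49 of 13250 (0.37%) differed at least 2-fold between these 2 libraries, against 95 (0.717%) between Htt-25Q 1 and Htt-25Q 2 of preparations 22 and 24.

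Of 33 regulators of calcium and CREB signalling, which act upstream of activity genes, 1 was higher (3.03%, near the 2.62% of all genes tested), Ets2, an ETS factor (log2 0.57 ± 0.11), and 0 lower, with a list median of 0.10. Creb1 itself had a log2 fold change of -0.17 ± 0.09, the kinase gene Camk2a 0.71 ± 0.24, the calcium-stimulated adenylate cyclase gene Adcy8 0.65 ± 0.17 and the activity-regulated factor gene Mef2c 0.25 ± 0.09, and none of these 4 passed.

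The called genes of receptors, channels and release were all higher, and the share called higher was 8.33% for glutamate receptors, 6.25% for GABA receptors and chloride transporters, 5.71% for voltage-gated channels and 10.3% for vesicle release, against 2.62% of all genes tested. Of 24 glutamate receptor genes 2 were called, Grin1, the obligate NMDA receptor subunit (log2 0.56 ± 0.12), and the AMPA receptor subunit Gria3 (0.53 ± 0.13). Of 16 genes of GABA receptors and chloride transporters, Gabra4 (0.65 ± 0.12) was called. Among 35 voltage-gated channel genes 2 were called, Kcna1 (1.05 ± 0.12) and Kcna4 (0.47 ± 0.12), both potassium channels. Kcna1 was 106, 50.7, 127 and 131 CPM against 19.8 to 75.4 CPM, with Htt-72Q 4 inside the range of the others. With group taken out, its log2 level was 6.64 in Htt-72Q 4 and at most 5.70 in the others. Synaptic vesicle release had 3 of 29, Slc17a7, the vesicular glutamate transporter (0.57 ± 0.10), Sv2c (0.90 ± 0.16) and Sv2b (0.33 ± 0.08). With preparation as a block the calls of Gria3, Kcna4 and Sv2b were lost (limma voom adjusted p = 0.085, 0.146 and 0.069). The list medians of the log2 difference were largest within Htt-25Q. Within control vector, Htt-25Q and Htt-72Q they were 0.03, 0.21 and 0.09 for glutamate receptors. They were 0.11, 0.36 and 0.21 for GABA receptors and chloride transporters. For voltage-gated channels they were -0.11, 0.36 and 0.09, and for vesicle release -0.04, 0.41 and 0.05.

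Of 19 genes of mature neurons 5 were higher (26.3%, against 2.62% of all genes tested) and 0 lower (list median 0.35), among them Rasgrf1, a calcium-dependent exchange factor (log2 0.89 ± 0.13), the neurofilament gene Nefh (0.83 ± 0.17) and Arpp21 (0.45 ± 0.09). Of 18 genes of immature neurons 0 were higher and 2 lower, against 1.11% lower over all genes tested (list median -0.31). The 2 were Cd24a (-0.43 ± 0.10) and Nnat (-0.43 ± 0.10). The summed level of the mature list was 4164 to 6828 CPM in the 27 cultures and 3582 to 7111 CPM in the others, so the sums overlapped. The median log2 difference of that list was 0.08 within control vector, 0.54 within Htt-25Q and 0.32 within Htt-72Q. The calls of Cd24a and Nnat were lost with preparation as a block (limma voom adjusted p = 0.051 and 0.063).

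In bulk RNA, fewer cells of a type and less RNA per cell cannot be told apart. Over all genes tested, 2.62% were higher and 1.11% lower. Of 22 markers of inhibitory neurons, 14 had a positive log2 fold change (list median 0.25, lowest -1.01), and 3 were called higher (13.6%). They were Vip, a neuropeptide of 1 interneuron class (log2 1.53 ± 0.29), and Gad2 (0.68 ± 0.13) and Gad1 (0.66 ± 0.13), the enzymes that make GABA. The summed level of the list was 724 to 1263 CPM in the 27 cultures and 523 to 1073 CPM in the others. Of 19 markers of excitatory cortical neurons 1 was higher (5.26%), Slc17a7, and the sums were 1326 to 3878 CPM against 1044 to 3739 CPM. In that list 11 of 19 log2 fold changes were positive (median 0.13, lowest -0.75). Pooled over groups, the sums of both neuronal classes overlapped between the sets. Within each group, every 27 culture was above the others for both lists. The inhibitory sum was 1185 CPM in control vector 4 and at most 1073 CPM in the other controls. For the excitatory sum these values were 3747 and 3739 CPM, a small margin. Astrocyte markers had 1 of 20 higher (5%), Aldh1l1 (0.47 ± 0.11), with sums of 6646 to 6965 CPM against 5824 to 7115 CPM. Of the 20 log2 fold changes 13 were positive (median 0.12, lowest -0.80). With preparation as a block the call of Aldh1l1 was lost (limma voom adjusted p = 0.117). Oligodendrocyte lineage genes had 2 of 17 lower, the myelin gene Mog (-1.14 ± 0.24) and the lineage factor Olig2 (-0.45 ± 0.09), with sums of 707 to 761 CPM against 639 to 932 CPM.

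Postn (log2 -0.96 ± 0.21) and Myl9 (-1.03 ± 0.24) were the 2 of 8 fibroblast and mural cell markers that were lower, against 1.11% of all genes tested. The sums of that list were 19.1 to 48.8 CPM against 23.6 to 115 CPM. Tnc, an extracellular matrix gene of progenitors and astrocytes (1.29 ± 0.28), and Hopx (0.67 ± 0.16) were the 2 of 15 progenitor markers that were higher (13.3%, against 2.62% of all genes tested). The median of that list was -0.14, with 5 of 15 log2 fold changes positive, and its sums overlapped (732 to 1103 CPM against 773 to 1031 CPM). Rxrg (-1.30 ± 0.28) was the 1 of 13 striatal markers that was lower, against 1.11% of all genes tested. The calls of Myl9, Hopx and Rxrg were lost with preparation as a block (limma voom adjusted p = 0.104, 0.064 and 0.075). Microglial markers were scarce, with 3 of 14 tested, 0 called and sums of 20.4 to 28.1 CPM against 12.6 to 38.7 CPM. Endothelial markers (3 of 12 tested) and red blood cell markers (1 of 7 tested, 2 at 0 in every library) summed to under 5 CPM in every library. The part of these cell markers in the difference of the activity genes was not tested.

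**Figure D5:**
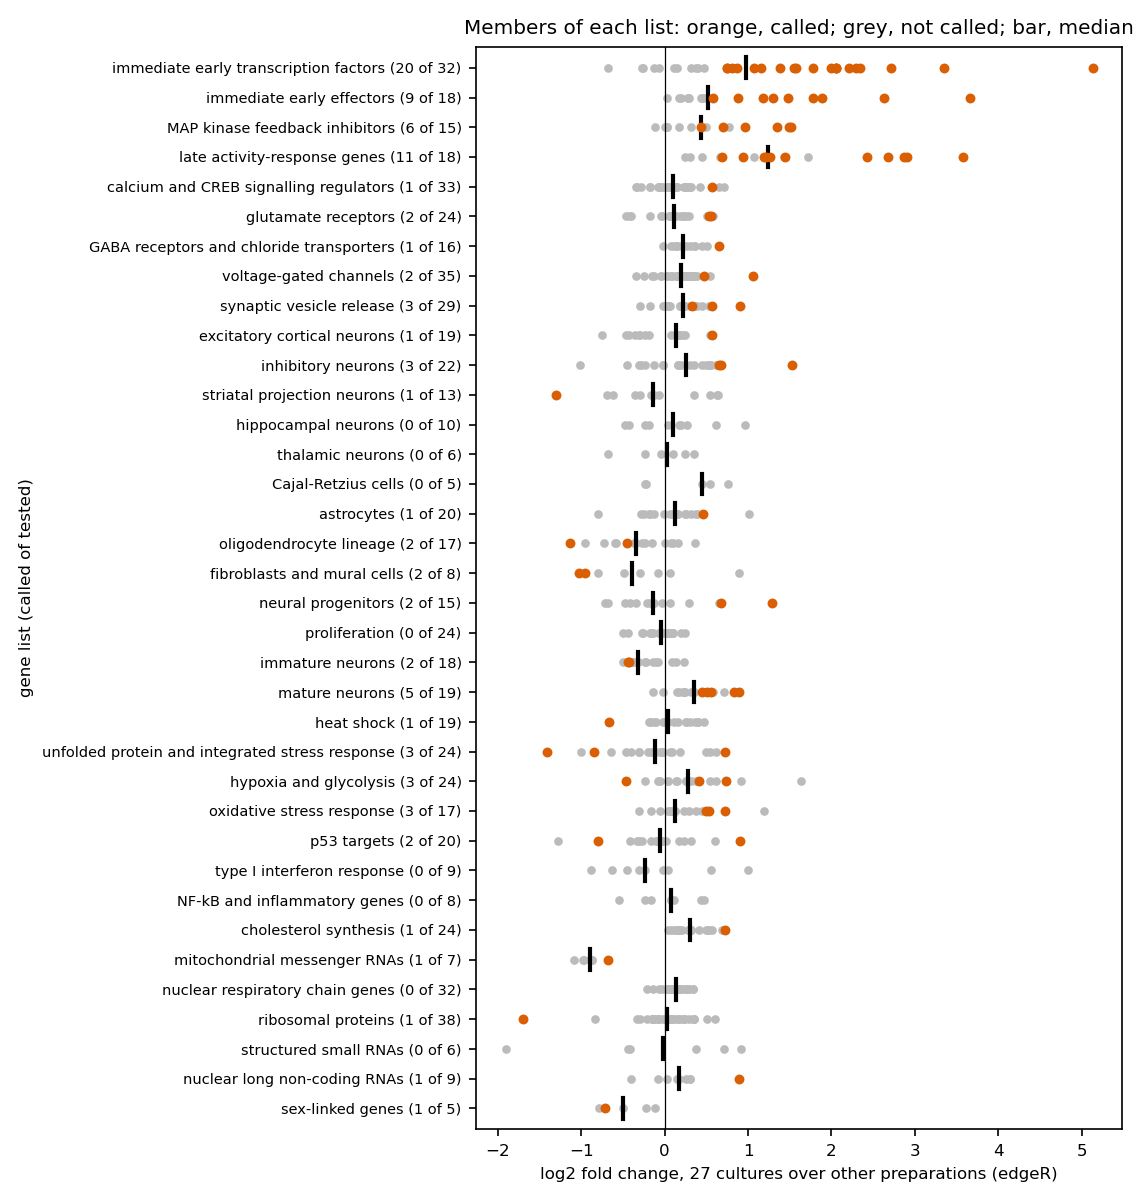
Each row is a list of genes with at least 5 tested members, each point a member at its log2 fold change (27 cultures over others, edgeR), orange where called, and the black bar the list median; the label gives called of tested. The 4 activity lists at the top reach medians of 0.97, 0.53, 0.43 and 1.24, while the medians of the other lists lie between -0.89 and 0.45.

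Genes outside the activity lists also differed, and 3 of the 10 largest positive differences were of this kind when called genes averaging under 1 CPM, unnamed and predicted genes and pseudogenes were left out. Alkal2, a ligand of the receptor tyrosine kinase ALK, was 15.0, 1.69, 17.1 and 14.7 CPM against 0.0657 to 1.99 CPM (log2 3.24 ± 0.53), so Htt-72Q 4 overlapped the others. Sertad1, a cell cycle cofactor, was 21.2, 15, 21 and 22.0 CPM against 1.44 to 8.05 CPM (3.05 ± 0.34). Klf14 was 3.37, 1.74, 2.66 and 3.87 CPM against 0.0797 to 0.788 CPM. The others had a median of 0.386 CPM, so Klf14 passed the filter on low counts mainly through the set in which it was higher. Its levels are therefore given without a fold or a test, and its place among the 10 is uncertain. Other genes, chosen after their values were seen, were Cfap43 (2.5 ± 0.15), the endothelial lipase gene Lipg (2.26 ± 0.16), the perineuronal net genes Acan (2.17 ± 0.25) and Hapln1 (1.48 ± 0.23), the clock gene Per2 (1.48 ± 0.20), Klf9 (1.40 ± 0.14), a glucocorticoid-responsive factor, and Syne1 (1.32 ± 0.13). Cfap43 was 31.8, 11.2, 33.3 and 36.2 CPM against 2.31 to 5.55 CPM, a clean separation of the sets.

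The hairpin gene of the CREB-regulated microRNA miR-132, also chosen after its values were seen, was low in all libraries. Mir132 was 0.884, 0.580, 1.09 and 1.25 CPM in control vector 4, Htt-72Q 4, Htt-25Q 3 and Htt-25Q 4 and at most 0.264 CPM in the others, 4 of which had 0. It passed the filter on low counts only through the 27 cultures, so its levels are given without a fold or a test. Counts over this hairpin gene do not separate the mature microRNA from longer RNA that covers it. Its mature 3p arm (RefSeq, GRCm38.p6, chr11:75173723-75173744, plus strand) is shown with the seed, bases 2 to 8, in capitals.
mmu-miR-132-3p: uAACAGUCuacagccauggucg

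Txnip, an inhibitor of thioredoxin and of glucose uptake, was 11.1, 24.5, 10.9 and 14.6 CPM against 25.7 to 79.8 CPM (median 62.0), 3.83-fold lower in the 27 cultures (log2 -1.94 ± 0.28, edgeR adjusted p = 0.0013). Every 27 culture was below every other library. Its relative Arrdc4 (-0.75 ± 0.10) and the PI3 kinase inhibitor gene Pik3ip1 (-0.86 ± 0.13), both chosen after their values were seen, were lower too. Chac1, a glutathione-degrading enzyme of the integrated stress response, was 21.5, 18.5, 19.0 and 23.8 CPM against 34.9 to 76.7 CPM (-1.41 ± 0.15). Draxin, an axon guidance protein, was 13.3, 14, 16.5 and 15.2 CPM against 29.7 to 65.6 CPM (-1.42 ± 0.22). Both were without overlap. Pipox (-1.35 ± 0.26) and Trhr (-1.38 ± 0.31) were lower at low levels. Exph5, Mei4 and Filip1l completed the list, near the filter on low counts in the 27 cultures. Log2 of CPM plus 0.5, with group taken out, was -0.37 to 0.35 against 0.78 to 1.71 for Exph5. It was -0.24 to 0.59 against 0.54 to 2.36 for Mei4 and -0.26 to 0.22 against 0.36 to 1.34 for Filip1l. These genes passed the filter mainly through the other preparations. They are therefore given without a fold or a test, and their places among the 10 are uncertain.

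Tpm3-rs7, Rpl30 and Gm6166, the last chosen after its values were seen, have near-identical copies in the genome, and reads may be divided between copies. Tpm3-rs7 (-1.87 ± 0.14) resembles Tpm3, which was named after its value was seen and was higher (0.79 ± 0.11). Rpl30 (-1.70 ± 0.17) was the 1 gene called among 38 ribosomal protein genes, against 3.73% of all genes tested. The pseudogene Gm6166 (-2.89 ± 0.19) had 5.61 to 10.8 CPM in the 27 cultures against 45.3 to 74.2 CPM in the others. How the authors counted reads with several positions is not given in the sources used here, so these values are uncertain.

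Among the stress and metabolism lists the share called higher was 4.17% for the unfolded protein and integrated stress response, 8.33% for hypoxia and glycolysis, 17.6% for oxidative stress and 5% for p53 targets, against 2.62% of all genes tested (1.11% were lower). Of 24 genes of the unfolded protein and integrated stress response 1 was higher, the cystine transporter gene Slc7a11 (0.73 ± 0.12), and 2 lower, Chac1 and Herpud1, a component of protein degradation at the endoplasmic reticulum (-0.84 ± 0.16). Hspa1b (-0.67 ± 0.14) was the 1 of 19 heat shock genes called. Hypoxia and glycolysis had 2 of 24 higher, the neuronal glucose transporter gene Slc2a3 (0.73 ± 0.12) and Pfkp (0.41 ± 0.09), and 1 lower, Ndrg1 (-0.46 ± 0.11). The oxidative stress list had 3 of 17 higher, among them Gsr (0.50 ± 0.10) and Hmox1 (0.53 ± 0.12), and p53 targets had 1 higher, Pmaip1 (0.90 ± 0.22), and 1 lower, Polk (-0.80 ± 0.16), of 20. No type I interferon or NF-kB gene was called, of 9 and 8 tested. With preparation as a block the calls of Pfkp, Ndrg1, Gsr, Hmox1, Pmaip1 and Polk were lost (limma voom adjusted p = 0.059, 0.111, 0.063, 0.102, 0.054 and 0.061).

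No measure of library make-up passed a test adjusted over the 6 measures, but 1 measure alone could not have passed it. Even at the smallest possible p, its adjusted p would stay above 0.05. Mitochondrial messenger RNA was 0.183% to 0.308% of counts in the 27 cultures and 0.238% to 0.545% in the others (exact permutation test of set labels within groups, two-sided, 96 arrangements, p = 0.0208, adjusted p = 0.125, smallest possible p = 0.0104). All 7 tested mitochondrial messenger RNAs had a negative log2 fold change, from -1.09 to -0.68 (list median -0.89, or -0.43 with the Gapdh class as a term). Of the 7, 1 was called lower, mt-Co1 (-0.68 ± 0.16), against 1.11% of all genes tested. The list has 13 members, and 6 had 0 counts in every library. The call of mt-Co1 was lost with preparation as a block (limma voom adjusted p = 0.062). The long non-coding RNA Mirg (0.89 ± 0.15) was higher, and the Y-linked gene Kdm5d (-0.72 ± 0.14) was lower. Their part in the difference of the activity genes was not tested.

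Promoters could be read for 35 of the 46 called activity genes and for 28 of the 37 not called. The letters TGACG, the half-site of the cyclic AMP response element, occurred on either strand of the 250 bases before the start in 21 of the 35 (60%) and in 12 of the 28 (42.9%). The share was 33.7% of 294 promoters of all genes called higher, 20.2% of 124 promoters of genes called lower and 27.2% of 11055 promoters of genes tested. Activity genes that were not called also had a share above that of the tested genes as a whole, and these shares were not tested. The full element TGACGTCA, which contains the half-site, was in 3 of the 35 and 4 of the 28, against 2.86% of promoters of genes tested. The AP-1 letters TGANTCA were in 0 of the 35, against 3.88% of promoters of genes tested, and the EGR letters GCGNGGGCG in 7 of the 35 (20%), against 9.19%. The CArG box was in 1 of the 35. A match of letters is a description of these windows and says nothing of which factor binds there.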

How the data were processed

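RNA was measured in 12 libraries, 4 per group. GRCm38, STAR 2.0.4b, featureCounts 1.45 and Subread are listed in the submitters' processing notes. Their roles, strandedness and the handling of reads with several positions are not stated there. The deposited files give counts per gene (41388 genes), and the authors' CPM and RPKM columns follow from those counts, so the counts were tested.

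Differences were tested with edgeR 4.0.16 (R 4.3.3): TMM scaling, filterByExpr with a minimum count of 10, the quasi-likelihood test on group and culture set, and Benjamini-Hochberg adjustment over 14707 genes; genes under 0.05 are called. Levels are TMM-scaled CPM, and ± is an SE. On simulated counts the test recovered 35.8%, 74.6% and 89.4% of genes changed 1.5-fold, 2-fold and 4-fold, with 6 false calls among 139. The simulated libraries were drawn independently, without group or preparation effects. The false calls therefore do not cover likeness within a preparation, which was 0.194 (consensus correlation) in the real libraries. limma 3.58.1 and DESeq2 1.42.0 gave alternatives, as did other scalings and filters and leaving out libraries. Residuals of libraries of 1 preparation correlated above 0.1 in 10 of 10 pairs with group alone in the model and in 6 of 10 with group and culture set. Those of libraries with the same number in the title did so in 10 of 12 and 6 of 12. Title number and preparation largely coincide, so these correlations cannot tell whether the numbers pair the samples. The labels state no pairing. No 2 libraries agreed within sampling noise (smallest chi-square per degree of freedom 9.00).

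The members and lists were chosen with earlier results of these data known, and are described without a set test. Named genes are Fos, Junb, Arc and Htt, the 10 called genes of greatest log2 fold change in each direction (with a symbol, a mean of at least 1 CPM, no predicted genes or pseudogenes), any tested member of the activity lists, and from each other list up to 4 called members, those of smallest p. The text marks genes that this rule does not give. Lists covered activity, excitability, cell markers, neuronal stage, stress and metabolism, and library make-up. Gene positions are those of GENCODE M21 on GRCm38, and sequences are from RefSeq. One result among the stress and metabolism lists is not reported here.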

Additional observations from a re-analysis of the deposited data

Results flagged for a closer look

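Each named gene was checked for a library far from the rest of its set after group was taken out, in the 4 27 cultures and in the 8 others. Such a library was found in 14 of 242 checks, and chance gives one in about 1 in 20. The levels below are CPM.

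Within the 27 cultures Htt-72Q 4 stood lowest for Ptgs2 (4.5, the other 3 from 11.7 to 14.4), Nptx2 (36.1, the others from 104 to 122), Gpr3 (7.79, the others from 10.9 to 12.2), Sertad1 (15.0, the others from 21 to 22.0) and Lipg (5.80, the others from 27.5 to 31.6). Control vector 4 stood lowest for Kcna1 (106) and Htt-25Q 4 highest for Cd24a (377) once group was taken out.

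Among the other preparations Htt-72Q 3 stood highest for Egr2 (5.02, the others from 1.25 to 2.19), Csrnp1 (2.55, the others from 1.09 to 2.28), Alkal2 (1.99, the others from 0.0657 to 1.46) and Adcyap1 (5.66), and lowest for Slc17a7 (78.8, the others from 102 to 291). Htt-72Q 1 stood highest for Syne1 (57.9, the others from 38.8 to 46.4) and Per2 (24.4, the others from 13.0 to 17.7).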

How the results depend on the processing

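The count of 548 called genes moved to 1059 with DESeq2, 341 with preparation as a random block, 150 with 5 preparation means, 885 without a filter, 217 without the group term, 272 without the preparation 27 library, 125 without preparation 24, 823 without preparation 26, 30 with only control vector and Htt-72Q, 1516 with only Htt-25Q, 236 at an adjusted p under 0.01 and 173 at 2-fold or more. With the title number as a replicate block it was 1139 (538 higher and 601 lower), with 21 activity genes called higher and 1 lower; the labels do not make this a pairing. Leaving out 1 library gave 211 to 820 genes, within 1.5 times of the full count except without control vector 4 (211), Htt-25Q 1 (279), Htt-25Q 2 (304), Htt-25Q 3 (306) or Htt-25Q 4 (272). The 46 activity genes called higher moved to 29 with preparation means, 28 without preparation 24 and 16 with only control vector and Htt-72Q, and to 32 to 49 when 1 library was left out. Of the 46, 29 were called and 46 positive in every fit that left out 1 library. The call was lost in 8 of these 12 fits for Penk, in 7 for Dusp14, Spred3, Nrn1 and Scg2 and in 6 for Egr2. Chosen after seeing the data, a Gapdh class term gave 398 genes and 47 activity genes, the 6 high-Gapdh libraries 524 and 44, and the 6 low-Gapdh libraries, with 1 27 culture, 1 and 1, where all 46 were still positive. The interaction went from 0 to 37 genes without a filter and to 2 with DESeq2. The causes were not tested.

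The log2 fold change of Htt, near 0, ran from -0.042 to 0.20 when 1 library was left out, negative without Htt-25Q 1, Htt-25Q 2, control vector 3 or Htt-25Q 3. It was -0.035 without preparation 24, -0.052 without preparation 26, -0.21 with only control vector and Htt-72Q, -0.011 with the Gapdh class and -0.17 in the high-Gapdh libraries. Gapdh was -0.091 in the high-Gapdh libraries. With the replicate block Scg2 was -0.20 and Spred1 -0.053.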

Other observations

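Of the 588 tested memberships of the 37 lists outside the activity lists, 30 were higher and 15 lower (7.65%), and 13 of these lists had no called member. A gene in more than 1 list, such as Slc17a7, counts in each. The share is therefore not directly comparable with the 3.73% of all genes. Genes changed 1.5-fold were recovered in 35.8% of simulated cases.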
